A study of Mus musculus with 9 samples.

Results

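RAW264.7 cells treated with sodium butyrate and then LPS (LPS+NaBu, 3 libraries) were compared with untreated RAW264.7 cells (Control, 3 libraries), gene by gene. These 6 libraries of the 9 in the RNA-seq series were chosen by their treatment label, and the 3 libraries given LPS alone entered neither the group values nor the main test, although the deposited scaling factors were set over all 9. RAW264.7 is a macrophage-like line of mouse that the Abelson leukaemia virus transformed, so both groups were 1 proliferating, transformed line and not primary macrophages. The cells carried no engineered allele according to the labels, and the labels give neither the dose of either agent nor the times of exposure for these libraries. The series text calls the 3 libraries of a group biological replicates. Nothing further says how the cultures were separated, so the spread behind the p-values may be technical in part.

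LPS is a glycolipid of the outer membrane of Gram-negative bacteria. Macrophages sense it through CD14, MD-2 and TLR4, and the adaptors MyD88 and TRIF then activate NF-kB, the MAP kinases and IRF3, which drive cytokine, chemokine and type I interferon genes. Butyrate is a short-chain fatty acid made by gut bacteria. It inhibits class I and some class II histone deacetylases and is a ligand of the receptors encoded by Ffar2, Ffar3 and Hcar2. The question here was how far cells given both agents stood from cells given neither. With this pair of groups the effect of LPS and that of butyrate cannot be told apart.

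The deposited value of a gene was its read count divided by a scaling factor of its library (a normalised count). It was not divided by gene length, so it compares libraries and not genes. Whole reads were recovered from these values, and the libraries held between 39402123 and 64380392 reads in the LPS+NaBu group and between 44946237 and 57224467 in the control group. Values are given as mean ± SD of 3 libraries. A log2 change is LPS+NaBu minus Control on log2(normalised count + 1) with its standard error. Adjusted p-values come from limma over all tested genes with Benjamini-Hochberg adjustment, and "rose", "fell" and "called" mean an adjusted p below 0.05. The added 1 understates the change of genes with few reads. In correlation over the tested genes the libraries of a group reached 0.9905 to 0.9937 with each other and 0.8972 to 0.8997 with the other group. The first principal component held 91.3% of the variance and separated the groups, and the second, with 3.02%, set control replicates 2 and 3 apart from each other. The mitochondrial share of reads was 2.13% in Control and 2.12% in LPS+NaBu libraries (exact permutation test, two-sided, p = 0.8, where 0.1 is the smallest p that 3 against 3 can give). More genes reached 10 normalised counts in LPS+NaBu libraries (14467 ± 68.2) than in control libraries (13446 ± 140.4), without overlap (exact permutation test, two-sided, p = 0.1).

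Of 43629 listed genes, 14382 passed the filter of 10 normalised counts in at least 3 of the 6 libraries, 9195 had a read but did not pass it, and 20052 had no read in any of the 6. A difference was called for 11398 of the tested genes (79.3%). Of these, 6136 were higher (42.7% of the genes tested) and 5262 lower (36.6%) in LPS+NaBu cells. At least 2-fold differences were called for 3010 higher (20.9%) and 1958 lower genes (13.6%). Of these 60.6% were higher, whereas under quantile normalization, which gives every library the same distribution of values, 2468 higher and 2704 lower genes changed at least 2-fold (47.7% higher). A further limit is the filter, since 770 tested genes had no control library at 10 normalised counts and 111 no LPS+NaBu library, and such genes could not be called in the other direction. These shares are the background against which each group of genes below has to be read. The median log2 change of all tested genes was 0.08 and the median standard error 0.074, and the libraries of the groups did not overlap for 11597 genes (80.6%). Large rises outnumbered large falls, with 721 genes at least 10-fold higher and 74 at least 10-fold lower. The direction also depended on the level of the gene. Among tested genes whose larger group mean was under 100, 35.8% were at least 2-fold higher and 10.9% at least 2-fold lower. Where the larger group mean was 10000 or more, 12.4% were higher and 19.0% lower. Genes that went from near silence to clear expression were numerous, since 136 had a control mean under 10 and an LPS+NaBu mean of at least 100. The reverse held for 1 gene.

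**Figure D1:**
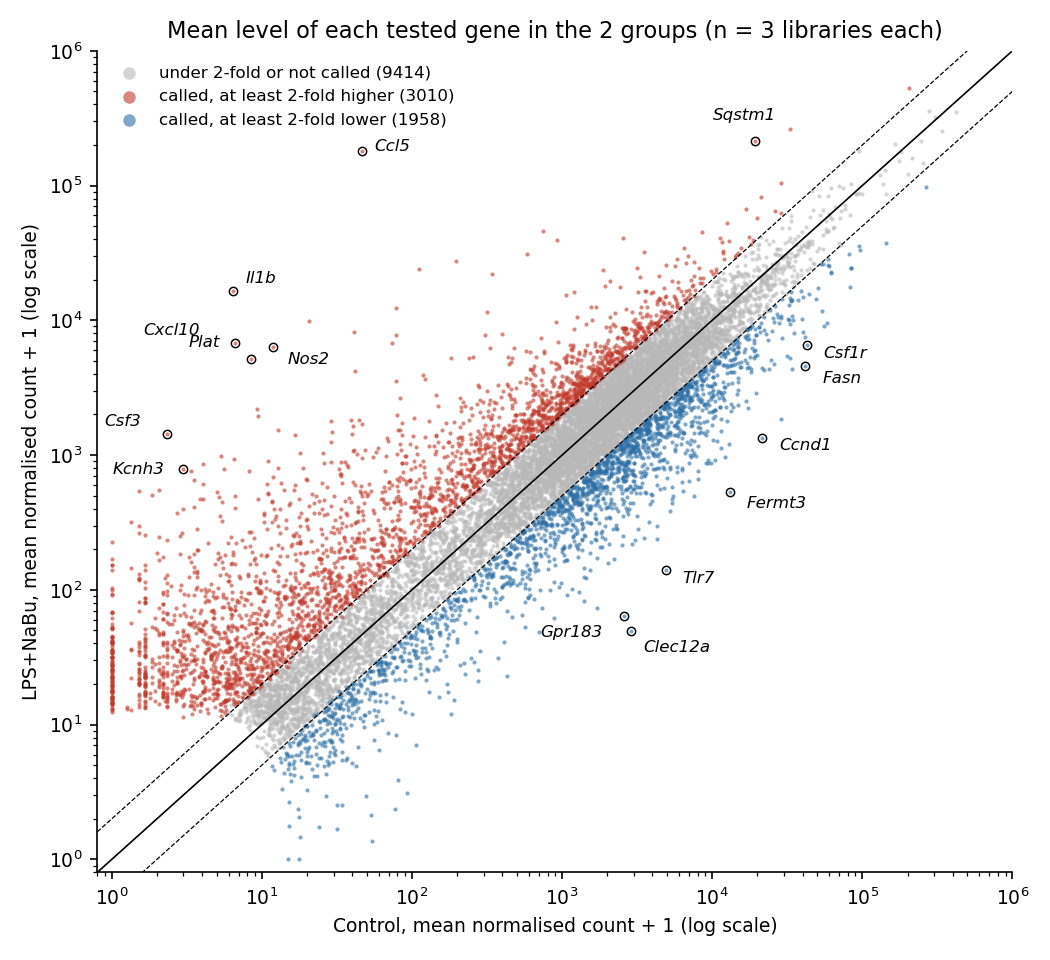
Mean normalised count plus 1 of each tested gene in the 3 control libraries (x axis, log scale) against that in the 3 LPS+NaBu libraries (y axis, log scale); each point is 1 of 14382 genes, and colours mark genes called at least 2-fold higher (3010) or lower (1958). The cloud of higher genes reaches far above the diagonal at the left, where control values are low. Most of the lower genes have a larger group mean of 1000 or more.

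The promoters of several of these genes are known for short motifs. Interferon-stimulated genes carry the interferon-stimulated response element (ISRE), bound by IRFs and their partners. NF-kB targets carry kB sites, and many cell cycle promoters carry CCAAT boxes, bound by NF-Y. RefSeq promoter windows of build GRCm38.p6 were searched over the 250 bases before the annotated start, on both strands. The letters searched were GAAA, any 2 bases and GAAA again for the ISRE, GGGA, any 1 base and TTTCC for the kB site, and CCAAT for the CCAAT box. Of all 32851 promoter windows listed, 2.98% held the ISRE letters, 0.356% the kB letters and 33.9% the CCAAT letters. A match describes the sequence and is not evidence of binding. The guanylate-binding proteins (GBPs) and immunity-related GTPases held the ISRE letters in 8 of the 9 tested members with a window (88.9%). The piece around 1 match in each follows, with the match in capitals. Where the capitals read TTTC, 2 bases and TTTC, the motif lies on the other strand.
Gbp2 chr3:142620594-142620623 (plus strand): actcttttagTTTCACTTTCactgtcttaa
Gbp3 chr3:142559989-142560018 (plus strand): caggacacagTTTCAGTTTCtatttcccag
Gbp5 chr3:142496759-142496788 (plus strand): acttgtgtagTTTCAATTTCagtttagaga
Gbp7 chr3:142530273-142530302 (plus strand): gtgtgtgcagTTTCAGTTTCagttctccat
Irgm1 chr11:48871425-48871454 (minus strand): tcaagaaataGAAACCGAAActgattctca
Irgm2 chr11:58214903-58214932 (plus strand): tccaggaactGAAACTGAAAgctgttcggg
Igtp chr11:58199512-58199541 (plus strand): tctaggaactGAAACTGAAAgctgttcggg
Gm12250 chr11:58183742-58183771 (plus strand): cctcggtggcTTTCAGTTTCtatgcctaga
Of these 8, Gbp2, Gbp3, Gbp5, Gbp7, Irgm1, Irgm2 and Igtp rose and Gm12250 was not called. Ifi47 had a window without a match and fell. Irgm2 and Igtp differ at few letters around the match. Whether their transcripts are alike enough to exchange reads in counting was not tested. Of the interferon-stimulated antiviral genes described further on, 17 of 42 windows (40.5%) held the letters, although only 42 of 54 tested genes (77.8%) had a window, too few to describe the list. Isg15 and Ifit1 held them in repeats and are shown, while the windows of Cmpk2, Ifit2, Irf7 and Oasl1, which also rose, held none.
Isg15 chr4:156200871-156200900 (minus strand): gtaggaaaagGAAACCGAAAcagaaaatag
Ifit1 chr19:34640794-34640823 (plus strand): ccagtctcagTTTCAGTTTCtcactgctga

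The whole window of 4 further genes is shown because the results turn on them. Cxcl10 and Nfkbia rose, and Mki67 and Cdc20 fell. Capitals mark the ISRE and a CCAAT box in Cxcl10, the kB site in Nfkbia and the CCAAT boxes in Mki67 and Cdc20.
Cxcl10 chr5:92348890-92349139 (minus strand): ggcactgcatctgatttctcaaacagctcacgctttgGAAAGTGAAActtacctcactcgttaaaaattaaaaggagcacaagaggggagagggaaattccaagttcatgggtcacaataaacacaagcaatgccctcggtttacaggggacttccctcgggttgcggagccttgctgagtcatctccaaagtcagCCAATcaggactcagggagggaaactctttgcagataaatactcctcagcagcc
Nfkbia chr12:55492648-55492897 (minus strand): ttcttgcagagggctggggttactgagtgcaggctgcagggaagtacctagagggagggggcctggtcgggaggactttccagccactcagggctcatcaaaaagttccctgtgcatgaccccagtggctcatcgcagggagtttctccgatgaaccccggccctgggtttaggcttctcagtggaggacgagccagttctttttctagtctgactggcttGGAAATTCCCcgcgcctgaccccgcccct
Mki67 chr7:135716380-135716629 (minus strand): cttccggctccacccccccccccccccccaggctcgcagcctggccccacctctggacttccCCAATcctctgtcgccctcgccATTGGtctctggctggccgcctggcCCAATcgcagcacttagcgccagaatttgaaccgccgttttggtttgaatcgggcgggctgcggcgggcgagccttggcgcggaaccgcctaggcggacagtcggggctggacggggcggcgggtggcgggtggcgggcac
Cdc20 chr4:118437344-118437593 (minus strand): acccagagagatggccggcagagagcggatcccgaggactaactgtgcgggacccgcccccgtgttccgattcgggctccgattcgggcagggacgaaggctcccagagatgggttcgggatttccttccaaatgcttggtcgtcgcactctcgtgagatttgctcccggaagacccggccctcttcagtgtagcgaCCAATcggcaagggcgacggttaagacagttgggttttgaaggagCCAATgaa
In Cxcl10 the ISRE letters began 213 bases and the CCAAT box 54 bases before the start. The kB letters of Nfkbia began 29 bases before it. Mki67 held CCAAT letters from 188, 166 and 141 bases and Cdc20 from 53 and 8 bases before the start. CCAAT letters were found in 33 of 51 windows of mitosis genes (64.7%) and 27 of 48 of DNA replication genes (56.2%), both groups that fell. They were also in 15 of 20 windows of class I presentation genes (75%), of which more rose than fell.

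The largest rises included chemokines, cytokines, antiviral genes and genes of other tissues. Ccl5 (chr11:83416602-83425942, GRCm39), the T cell and monocyte chemoattractant RANTES, gave normalised counts of 34.2, 58 and 44.3 in the control libraries and 186034, 189952 and 168595 in the LPS+NaBu libraries. Its log2 change was 11.96 ± 0.14 (adjusted p = 2.4e-14). Il1b (chr2:129206490-129213059), the precursor of interleukin-1 beta, gave 6.36, 4.0 and 6.04 in the control libraries and 16443, 16184 and 16490.1 in the LPS+NaBu libraries, a log2 change of 11.33 ± 0.14 (adjusted p = 3.9e-14). Cxcl10, the ligand of CXCR3, gave 7.95, 3.0 and 6.04 in the control libraries and 6724, 7001 and 6572 in the LPS+NaBu libraries (log2 change 10.06 ± 0.23, adjusted p = 2.4e-12). The spread within a group was small beside the difference for all 3 genes. Absence of overlap between the groups was a condition for this ranking, and it held for 80.6% of all tested genes.

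Csf3, which encodes the granulocyte growth factor G-CSF, gave 0, 0 and 4.02 in the control libraries and 1383, 1379 and 1537 in the LPS+NaBu libraries. Control counts of it were at or near 0, so its log2 change of 9.71 ± 0.50 depends on the added 1. Plat, tissue plasminogen activator, went from 7.41 ± 3.95 to 5151 ± 164 (log2 change 9.39 ± 0.29). Nos2, the inducible nitric oxide synthase, went from 10.8 ± 4.0 to 6292 ± 375 and Rsad2, the antiviral protein viperin, from 19.5 ± 7.56 to 9962 ± 759. Among the 15 largest rises were also genes of an ion channel, of cell junctions and of adhesion. Kcnh3, a voltage-gated potassium channel of brain, rose from 2.0 ± 3.46 to 781 ± 27.5. F11r, the tight junction protein JAM-A, rose from 1.06 ± 1.84 to 546 ± 25 and Ppl, the desmosome-linked periplakin, from 0.335 ± 0.581 to 318 ± 27.2. Igsf9, a neuronal adhesion protein, had 3 reads over the control libraries together, and its ratio was 545 with a 95% counting interval of 186 to 2646. BC021614 had 2 such reads, with a ratio of 892 and an interval of 247 to 7369. Disp2, Heatr9 and Cmpk2 complete the 15, with log2 changes of 8.12, 7.83 and 7.93.

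The largest falls were led by 3 receptor genes. Clec12a, an inhibitory C-type lectin receptor of myeloid cells, gave 2855, 2984 and 2738 in the control libraries and 50.9, 44.6 and 50.8 in the LPS+NaBu libraries (log2 change -5.85 ± 0.096, adjusted p = 2.3e-13). Gpr183, the receptor for oxysterols, gave 2504, 2619 and 2603 in the control libraries and 71.5, 63.6 and 54.4 in the LPS+NaBu libraries (log2 change -5.34 ± 0.11). Tlr7, the endosomal receptor for single-stranded RNA, gave 4801, 5129 and 4784 in the control libraries and 157, 120.5 and 139.7 in the LPS+NaBu libraries (log2 change -5.14 ± 0.091). Absence of overlap between the groups was a condition for naming these falls, and it held for 80.6% of all tested genes. Fermt3 (kindlin-3), which activates integrins of blood cells, fell from 13162 ± 49.2 to 534 ± 11.3. Fbxo5, an inhibitor of the anaphase-promoting complex, fell from 1706 ± 108 to 72.2 ± 3.22. Ccnd1, cyclin D1 of the G1 phase, fell from 21542 ± 235 to 1347 ± 22.6 (log2 change -4.0 ± 0.039). Dlg3, Fam64a, Tfap4, Rasgrp3, Fmnl1, Kif15 and Trim65 fell, with log2 changes between -4.25 and -3.86. The remaining 2 of the 15, Gm6091 (-3.99) and Gm13160 (-3.95), are predicted genes, and reads of related genes may be counted in them.

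Among genes that averaged at least 1000 in both groups, the largest rise was that of Ier3. Ier3, an immediate early gene, rose from 2543 ± 203 to 41138 ± 615 (log2 change 4.02 ± 0.054). Zfp36 (tristetraprolin), which destabilises cytokine mRNAs, rose from 1062 ± 65.1 to 15500.2 ± 379. Nfkbia (IkB-alpha) rose from 1869.7 ± 71.6 to 23758 ± 385 and Sqstm1 (p62), a cargo receptor of autophagy, from 19149 ± 961 to 212930 ± 14011. Agrn, Helz2, Hist1h1c, Sat1, Mmp9 and Tnfrsf1b had log2 changes of 3.77, 3.24, 3.21, 3.20, 3.09 and 3.01. The largest falls of such abundant genes after Ccnd1 were Rasgrp3 (-3.96), Hmga2 (-3.43), the NADPH oxidase subunit Ncf1 (-3.35), fatty acid synthase Fasn (-3.19), Anln (-3.09) and Mki67 (-2.97). Arhgef6, Anp32b and Flnc followed, at -2.97, -2.96 and -2.93.

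Cytokine genes were mostly higher in LPS+NaBu cells. Of 17 tested proinflammatory cytokine genes 13 rose, 11 of them at least 2-fold, and 2 fell. For 4 of the 13 no control library reached the filter. The median log2 change of the list was 1.97, against 0.08 over all tested genes. Tnf, the first cytokine released by LPS-treated macrophages, gave 4642, 4610.5 and 4806 in the control libraries and 9101, 9315 and 9334 in the LPS+NaBu libraries. Its log2 change was 0.98 ± 0.039 (adjusted p = 2.5e-10), just short of 2-fold, and the groups did not overlap. Il1a rose from 40.6 ± 11.3 to 4172 ± 140.2, Il18 from 52.2 ± 5.98 to 538 ± 42.3 and Lif from 42.2 ± 10.5 to 1025 ± 128. Csf1, the ligand of the macrophage receptor CSF1R, rose from 21.1 ± 12.7 to 368 ± 34.6. Members below the filter were low in both groups. Il6 gave 0, 0 and 4.02 in the control libraries and 6.88, 11.2 and 10.9 in the LPS+NaBu libraries, and Ifnb1, interferon beta, gave 0, 2.0 and 0 in the control libraries and 5.50, 4.46 and 5.44 in the LPS+NaBu libraries. Neither was tested. Tnfsf10 (TRAIL) and Il12b had no read in any control library and values of 28.9, 30.1 and 32.7 for Tnfsf10 and 29.6, 13.4 and 21.8 for Il12b in the LPS+NaBu libraries, which made them at least 10.9-fold and 7.70-fold higher against a floor of 3 reads per control library. Ltb (lymphotoxin beta) fell from 782 ± 37.5 to 199.9 ± 13 (log2 change -1.96 ± 0.093), and the costimulatory ligand Tnfsf9 fell from 1932 ± 47.2 to 1247 ± 10. Osm and Tnfsf13b were not called, at log2 changes of -0.21 and 0.16.

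The anti-inflammatory and type 2 cytokine list rose as well, with 7 of 8 tested genes higher and 1 lower (median log2 change 1.62). For 2 of the 7, Tgfb3 among them, no control library reached the filter, so they had to be higher. Of the other 6 tested genes 5 rose and 1 fell. Il10 had no read in the control libraries and 4.81, 4.46 and 9.07 in the LPS+NaBu libraries, and it was too low to be tested. Il4, the cytokine of alternative activation, gave 23.1, 19 and 24.1 in the control libraries and 72.9, 75.8 and 79.8 in the LPS+NaBu libraries (log2 change 1.75 ± 0.22, adjusted p = 1.4e-05), low values that did not overlap. Il1rn, the antagonist of interleukin-1, rose from 7639 ± 93.3 to 10315 ± 329.6 (log2 change 0.43 ± 0.04). Tgfb1 rose by 0.18 on the log2 scale. Tgfb3, Il11 and Il15 rose from 4.92 ± 3.46 to 50.4 ± 5.92, from 8.14 ± 1.82 to 46.4 ± 7.64 and from 119.5 ± 34.3 to 329.9 ± 33.5. Il16, a chemoattractant for CD4+ cells, was the member that fell, from 1237 ± 79.7 to 446 ± 19.8.

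Chemokine ligands moved almost as a block. All 18 tested genes were called, 17 higher and 1 lower, and 13 rose at least 2-fold (72.2% of the list against the 20.9% background). For 5 of the 17 no control library reached the filter. Of the other 13 tested genes 12 rose and 1 fell. Besides Ccl5 and Cxcl10, the neutrophil chemoattractant Cxcl2 gave 344, 380.04 and 301 in the control libraries and 21776, 21429 and 23330.1 in the LPS+NaBu libraries (log2 change 6.02 ± 0.075). Ccl22, a ligand of CCR4, rose from 39.8 ± 5.07 to 8249 ± 380.3, and Ccl2, the ligand of CCR2, from 426 ± 26.7 to 3342 ± 67.2. The macrophage inflammatory proteins Ccl3 and Ccl4 rose from 16742 ± 184 to 67351 ± 2069.5 and from 5879 ± 226 to 19344 ± 397. Cxcl11 and Cx3cl1 had no control read and were at least 79.8-fold and 23.9-fold higher. Cxcl14 was the member that fell, from 4133 ± 221 to 1992 ± 84.1 (log2 change -1.05 ± 0.054). Cxcl1, Cxcl3 and Cxcl9 were below the filter, with LPS+NaBu values of 9.63, 10 and 5.44, of 8.94, 15.6 and 21.8 and of 11, 11.2 and 5.44.

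The receptors for chemoattractants split instead. Of 15 tested, 6 rose and 7 fell, and the median log2 change was -0.09. For 2 of the 6 no control library reached the filter. Ccrl2, which binds chemerin, rose from 57.9 ± 10.5 to 1123 ± 45.7 and the leukotriene B4 receptor Ltb4r1 from 12.1 ± 3.58 to 264 ± 17.7. Ccr7, the receptor that guides cells to lymph nodes, gave 0, 0 and 2.01 in the control libraries and 57.8, 33.5 and 36.3 in the LPS+NaBu libraries. On the other side Cx3cr1, the fractalkine receptor of monocytes and macrophages, gave 3456, 3671 and 3577 in the control libraries and 748, 739 and 657 in the LPS+NaBu libraries (log2 change -2.32 ± 0.062, adjusted p = 7.6e-12). Cxcr3, Ccr10 and Cxcr4 fell, with log2 changes of -1.54, -1.35 and -1.19. Ccr2 and C5ar1 were not called, with 45 ± 7.83 and 42.3 ± 6.87 for Ccr2 and 445 ± 33.7 and 419.8 ± 56.4 for C5ar1.

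**Figure D2:**
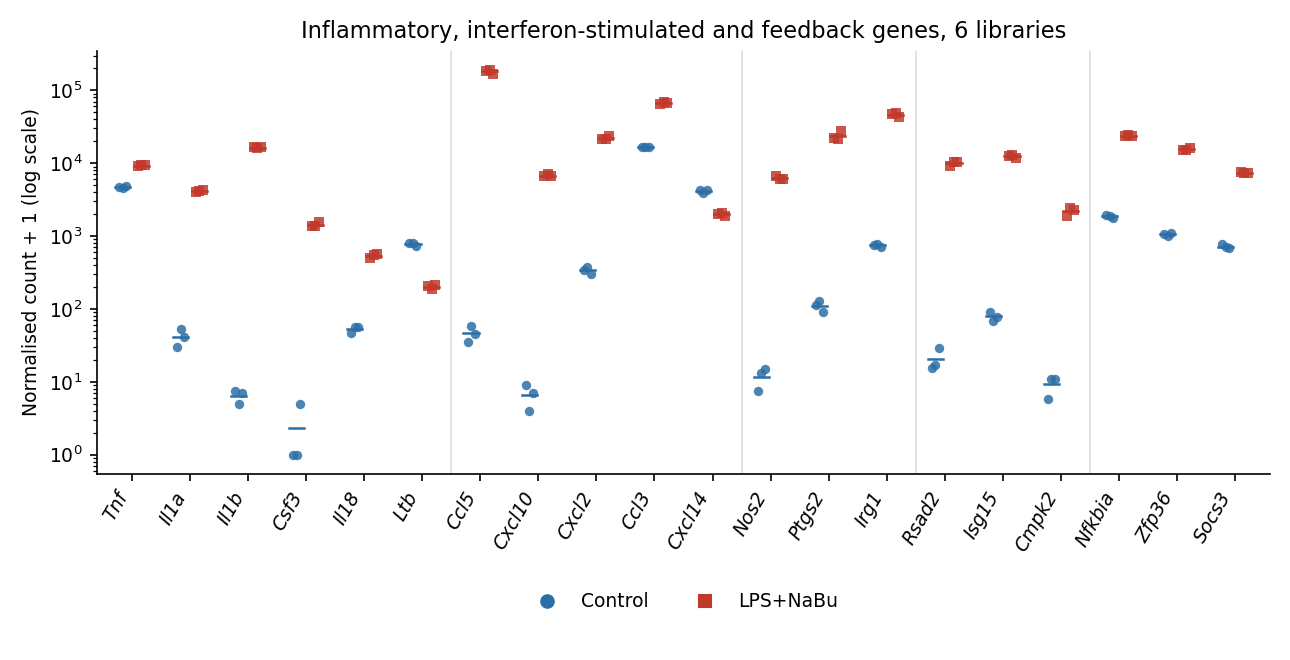
Normalised count plus 1 (y axis, log scale) of 20 inflammatory, interferon-stimulated and feedback genes in each of the 3 control (circles) and 3 LPS+NaBu (squares) libraries; short lines mark group means. Squares lie above circles for every gene except Ltb and Cxcl14, and Tnf and Ccl3 show the smallest gaps among the genes that rose.

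Enzymes that make nitric oxide, itaconate and prostaglandins were among the strongest rises, but not every enzyme of these pathways followed. Nos2 gave 6.36, 12 and 14.1 in the control libraries and 6721, 6128 and 6027 in the LPS+NaBu libraries (log2 change 9.12 ± 0.21, adjusted p = 2.6e-12). Ptgs2 (COX-2), the inducible cyclooxygenase, gave 111, 127 and 90.5 in the control libraries and 22282, 21704 and 27767 in the LPS+NaBu libraries (log2 change 7.76 ± 0.12). Irg1 (Acod1), which makes itaconate from cis-aconitate, gave 763, 783 and 702 in the control libraries and 47546, 48463 and 42929 in the LPS+NaBu libraries (log2 change 5.95 ± 0.057). For each of these enzymes every LPS+NaBu library lay above every control library. Arg2 rose from 47.5 ± 15.4 to 1088 ± 42.7 and Ass1, which recycles citrulline to arginine, from 0.932 ± 1.01 to 51.4 ± 14.9, while Arg1 was not called (9.17 ± 7.27 and 15.1 ± 3.19, log2 change 0.88 ± 0.50). Ptges, the terminal synthase of prostaglandin E2, rose from 248 ± 4.37 to 912 ± 25.6. The constitutive Ptgs1 fell from 4982 ± 9.81 to 3899 ± 114, and thromboxane synthase Tbxas1 fell from 854 ± 40 to 297 ± 6.33. Hpgds and the phospholipase Pla2g4a fell, with log2 changes of -1.33 and -1.09. In the list of 20, 10 rose and 6 fell (median 0.86), and the leukotriene genes Alox5 and Alox5ap were not called. Of the 10, Ass1 passed the filter through the LPS+NaBu group alone.

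The genes that recognise LPS and other microbial ligands were lower as a group. Of 13 tested, 9 fell (6 at least 2-fold) and 4 rose, with a median log2 change of -1.0. Tlr4 gave 3999, 4430.5 and 3985 in the control libraries and 1954, 1951 and 2332 in the LPS+NaBu libraries (log2 change -1.0 ± 0.072, adjusted p = 5.8e-08). Cd14, its coreceptor, gave 57718, 53768 and 55209 in the control libraries and 9097, 9279 and 8884 in the LPS+NaBu libraries (log2 change -2.61 ± 0.042). Ly96 (MD-2) had a log2 change of -0.41 ± 0.12. The 3 genes of the LPS receptor complex were thus lower without overlap between the groups. Cd180 and its partner Ly86, a TLR4-like complex, fell, with log2 changes of -2.48 and -1.01. Unc93b1, which carries nucleic acid-sensing receptors to endosomes, fell from 11864 ± 464 to 3496 ± 119, and Tlr13, a receptor for bacterial ribosomal RNA, from 2938 ± 163 to 217 ± 6.19. Tlr2, the receptor for lipopeptides, rose from 2451 ± 172 to 4193 ± 112, and Tlr1, Tlr3 and Tlr9 rose, with log2 changes of 0.84, 1.14 and 0.74.

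Downstream of the receptors, all 21 tested adaptors and kinases were called, where 79.3% of all tested genes were. Of the 21, 12 were higher and 9 lower (median 0.26). These were 57.1% and 42.9%, against 42.7% and 36.6% over all tested genes. The members of the MyD88 and TRIF arms moved in different directions. Myd88 fell from 3828 ± 99 to 2038 ± 127, Tirap from 2294 ± 113 to 1258 ± 69.3 and Irak1 from 4525 ± 227 to 1411 ± 23.8. Ticam1 (TRIF) rose from 1485 ± 119 to 4539 ± 184 and Ikbke, a kinase that acts on IRF3, from 1716 ± 17.5 to 5957 ± 156, but Ticam2 (TRAM), which links TRIF to TLR4, fell from 589.9 ± 83.2 to 193 ± 25.4. Irak3 (IRAK-M), an inhibitory member, rose from 462 ± 36 to 2221 ± 81.4. Map3k8 (TPL2) rose by 1.02 on the log2 scale.

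All 11 NF-kB and IkB genes were called, where 79.3% of all tested genes were. Of the 11, 9 were higher and 2 lower (81.8% and 18.2%, against 42.7% and 36.6% over all tested genes). Rela gave 3017, 3053 and 3235 in the control libraries and 3963, 3778 and 3545 in the LPS+NaBu libraries (log2 change 0.28 ± 0.052), and Nfkb1, Rel and Relb rose, with log2 changes of 0.21, 0.91 and 0.82. Nfkb2 rose from 4899 ± 60 to 11477 ± 413. Nfkbia gave 1938, 1875 and 1795 in the control libraries and 23772, 24135 and 23366 in the LPS+NaBu libraries (log2 change 3.67 ± 0.042, adjusted p = 2.4e-14), and its kB letters are in the window printed above. Nfkbiz (IkB-zeta), a nuclear cofactor needed for secondary response genes, rose from 307 ± 20.8 to 7774 ± 141. Nfkbie and Nfkbib rose, with log2 changes of 2.18 and 1.42. Nfkbid and Bcl3, both nuclear IkB proteins, fell, with log2 changes of -1.17 and -0.57.

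Feedback inhibitors of inflammatory signalling rose in 27 of 29 tested genes, 17 at least 2-fold (58.6% against 20.9%), and 1 fell, with a median log2 change of 1.29. For 3 of the 27 no control library reached the filter. The STAT inhibitors of the SOCS family rose. Cish gave 0, 1.0 and 0 in the control libraries and 151, 148 and 131 in the LPS+NaBu libraries, and Socs2 went from 3.46 ± 4.11 to 99 ± 14.9. Usp18, which removes ISG15 and blocks the interferon receptor, rose from 179.9 ± 59.5 to 5272 ± 252. Dusp5, a phosphatase of the kinase ERK, rose from 315 ± 13.7 to 11617 ± 545 (log2 change 5.20 ± 0.056). Tnip3 fell by 0.26 on the log2 scale and Tnip2 was not called (log2 change -0.04 ± 0.057). Socs1, Socs3, Dusp1, Zc3h12a, Tnfaip3 (A20) and Cd274 (PD-L1), chosen after their values were seen, rose, with log2 changes of 4.15, 3.37, 4.23, 2.75, 1.29 and 1.48.

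Interferon-stimulated antiviral genes were higher in 48 of 54 tested cases and lower in 3, and 44 (81.5%) rose at least 2-fold against the 20.9% background. For 4 of the 48 no control library reached the filter. The median log2 change was 2.69. Rsad2 gave 14.3, 16 and 28.2 in the control libraries and 9089, 10338 and 10460 in the LPS+NaBu libraries (log2 change 8.98 ± 0.19, adjusted p = 1.3e-12). Isg15, a ubiquitin-like modifier, gave 89.8, 68 and 75.4 in the control libraries and 12616, 12775 and 11696 in the LPS+NaBu libraries (log2 change 7.30 ± 0.092). Cmpk2, which lies beside Rsad2 and makes pyrimidine triphosphates, gave 4.77, 10 and 10.1 in the control libraries and 1859, 2402 and 2278 in the LPS+NaBu libraries (log2 change 7.93 ± 0.24). The groups were more than an order of magnitude apart for each of these. I830012O16Rik (Ifit3b) rose by 6.88 on the log2 scale, but it shares stretches of sequence with Ifit3, so the reads of the pair may have been split between them. The 3 members that fell were Slfn9 (1557 ± 82.1 to 544 ± 61.8), Ifi47 (177 ± 32.9 to 90.8 ± 11) and Lgals3bp (5446 ± 1234 to 3392 ± 271). Slfn9 also held ISRE letters, 45 bases before its start. Ifi27 and Parp12 were not called, with log2 changes of -0.04 ± 0.16 and 0.06 ± 0.06.

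The GBPs and immunity-related GTPases, which attack the vacuoles of pathogens, rose in 8 of 10 tested genes, all at least 2-fold, and 3 of the 8 passed the filter through the LPS+NaBu group alone. Gbp7 gave 12.7, 18 and 2.01 in the control libraries and 600.3, 671 and 791 in the LPS+NaBu libraries (log2 change 6.21 ± 0.51). Gbp2 gave 6.36, 4.0 and 2.01 in the control libraries and 172, 193 and 198 in the LPS+NaBu libraries and Gbp5 gave 4.77, 6.0 and 4.02 in the control libraries and 205, 259.9 and 202 in the LPS+NaBu libraries. Control values of these 3 GBPs were 18.0 or less, and every LPS+NaBu value was above them. Irgm2 and Igtp rose from 32.5 ± 14.3 to 892 ± 71.3 and from 56.7 ± 7.89 to 1058 ± 30.9, and Irgm1 from 711 ± 36.2 to 1541 ± 71.3. Gm12250 (Irgb10) was not called (15.9 ± 1.76 and 20.7 ± 4.14) although 2 ISRE matches lie before its start. Tgtp2, Gbp4, Gbp6 and Iigp1 were below the filter, and Tgtp2 was at 0 in the control libraries and 12.4, 22.3 and 9.07 in the LPS+NaBu libraries.

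Factors that carry interferon signals were mostly higher. In the list of IRFs, STATs, JAKs and receptors 14 of 22 tested rose and 7 fell (median 0.87). Irf7, the main amplifier of type I interferon genes, gave 229.8, 168 and 358 in the control libraries and 5449, 5519 and 5084 in the LPS+NaBu libraries (log2 change 4.47 ± 0.19). Stat2 rose from 1447 ± 124 to 9397 ± 26.8 and Irf9, its partner in the complex that binds the ISRE, had a log2 change of 1.08. Irf4 rose from 207 ± 21.2 to 2663 ± 88.6 and Irf1 from 655 ± 53.7 to 3261 ± 244. Irf3, which acts first after TLR4 and TLR3, rose little, from 1800.1 ± 149.9 to 2157 ± 79.9 (log2 change 0.26 ± 0.065). Irf5, Stat6 and Stat5b fell, with log2 changes of -1.36, -1.34 and -1.12. The subunits of the type I interferon receptor moved apart, Ifnar1 with a log2 change of 1.15 and Ifnar2 with one of -0.64, and Ifngr1 was not called.

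Antigen presentation differed between the classes. For class II and costimulation, 16 of 20 tested genes rose (15 at least 2-fold) and 3 fell, with a median of 2.46. Cd40, the receptor for T cell help, gave 66.8, 74 and 90.5 in the control libraries and 7976, 7821 and 7352 in the LPS+NaBu libraries (log2 change 6.64 ± 0.10). H2-Aa gave 29.4, 30 and 36.2 in the control libraries and 816, 805 and 736 in the LPS+NaBu libraries (log2 change 4.58 ± 0.14), and H2-Ob, which restrains peptide loading, rose from 8.41 ± 4.63 to 469 ± 41.3. Ciita, the master activator of class II genes, went from 0.530 ± 0.918 to 18.5 ± 5.36. It passed the filter through the LPS+NaBu group alone and had to be higher there. Cd80 rose only by 0.18 on the log2 scale (adjusted p = 0.027), and its call was lost without any 1 of 4 libraries (LPS+NaBu replicate 1 or 3, control replicate 1 or 3; adjusted p from 0.051 to 0.107). Cd86 was too low to be tested, with no control read and 16.5, 8.92 and 12.7 in the LPS+NaBu libraries. Lgals9 rose from 84.1 ± 22.6 to 1728 ± 70.3, and the protease Ctss, which trims the invariant chain, fell from 44714 ± 1074 to 28501 ± 1036. For class I, 13 of 24 rose and 6 fell (median 0.63). H2-T22, Nlrc5, Psmb9 and Tap1 rose, with log2 changes of 1.70, 1.64, 1.57 and 1.28, whereas H2-M3, the trimming peptidase Erap1, Psmb10 and H2-T24 fell, with log2 changes of -2.05, -1.77, -1.71 and -1.25. Reads of near-identical H2 genes may have been split in counting.

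AP-1 and other immediate early factors rose in 20 of 28 tested genes and fell in 6 (median 1.15). Of the 20, Batf3 passed the filter through the LPS+NaBu group alone and had to be higher there. Among the other 27, 19 rose and 6 fell. Batf3 went from 1.67 ± 2.89 to 71.8 ± 11.3 and Batf2 from 102 ± 19.8 to 906 ± 57.9. Nr4a3, an orphan nuclear receptor, rose from 12.7 ± 2.98 to 202 ± 21.8. Fosl1, Klf6, Egr3 and Klf9 fell, with log2 changes of -1.46, -1.36, -0.68 and -0.60, and Jun was not called (3175 ± 262 and 2902 ± 64.9).

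Genes that define macrophages were mostly lower. Each of the 10 macrophage markers was detected in every library, except Mertk, which had no read in control replicate 2, and 8 of 10 fell while 2 rose. Csf1r, the receptor for the growth factors CSF1 and IL-34, gave 42379, 42034 and 43832 in the control libraries and 6778, 6942 and 5888 in the LPS+NaBu libraries (log2 change -2.71 ± 0.058, adjusted p = 1.3e-12). Spi1 (PU.1), the myeloid transcription factor, gave 13794, 12990.4 and 13455 in the control libraries and 2503, 2460.4 and 2181 in the LPS+NaBu libraries (log2 change -2.50 ± 0.055). Ptprc (CD45) gave 11547, 12529 and 11344 in the control libraries and 2433, 2748 and 2742 in the LPS+NaBu libraries (log2 change -2.16 ± 0.057). Each of these 3 was lower in every LPS+NaBu library than in any control library. Mpeg1, Lyz2 and Cd68 fell, with log2 changes of -1.25, -0.79 and -0.71. Emr1 (F4/80) rose by 0.67 on the log2 scale, and Mertk, a receptor for apoptotic cells, rose from 1.73 ± 1.61 to 374 ± 32. Mertk passed the filter through the LPS+NaBu group alone and had to be higher there. In bulk RNA, fewer cells of a kind and less RNA per cell cannot be told apart.

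The wider macrophage identity list fell in 23 of 35 tested genes and rose in 7, Mertk among them. Of the 35, 14 were at least 2-fold lower (40% against the 13.6% background), and the median was -0.71. Sirpa, the receptor for the signal CD47, fell from 19686 ± 41.7 to 2895 ± 74.2 and Trem2, a lipid-sensing receptor, from 31654 ± 1034 to 5408 ± 447. Tfec, a factor related to MITF, fell from 563 ± 42 to 52.1 ± 8.15. Aif1 (IBA1), Cebpa and Csf2rb rose, with log2 changes of 1.92, 1.46 and 1.12, and Cebpb and Coro1a were not called.

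Phagocytic, scavenger, Fc and lectin receptors followed the same direction, with 17 of 30 lower, 8 higher and a median of -0.70. Msr1 (scavenger receptor A) gave 12199.6, 12421 and 12005 in the control libraries and 933, 942 and 1020.4 in the LPS+NaBu libraries (log2 change -3.66 ± 0.048). Clec4a2 and Clec5a fell, with log2 changes of -2.55 and -2.08. Olr1, the receptor for oxidised LDL, was at 0 in every control library and rose to 37.8, 39 and 43.5, at least 14.3-fold higher. It passed the filter through the LPS+NaBu group alone and had to be higher there. Gas6, a bridge between phosphatidylserine and MERTK, rose from 704 ± 20 to 2775 ± 304, and Trem1 from 5.22 ± 4.36 to 35.8 ± 14.7.

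**Figure D3:**
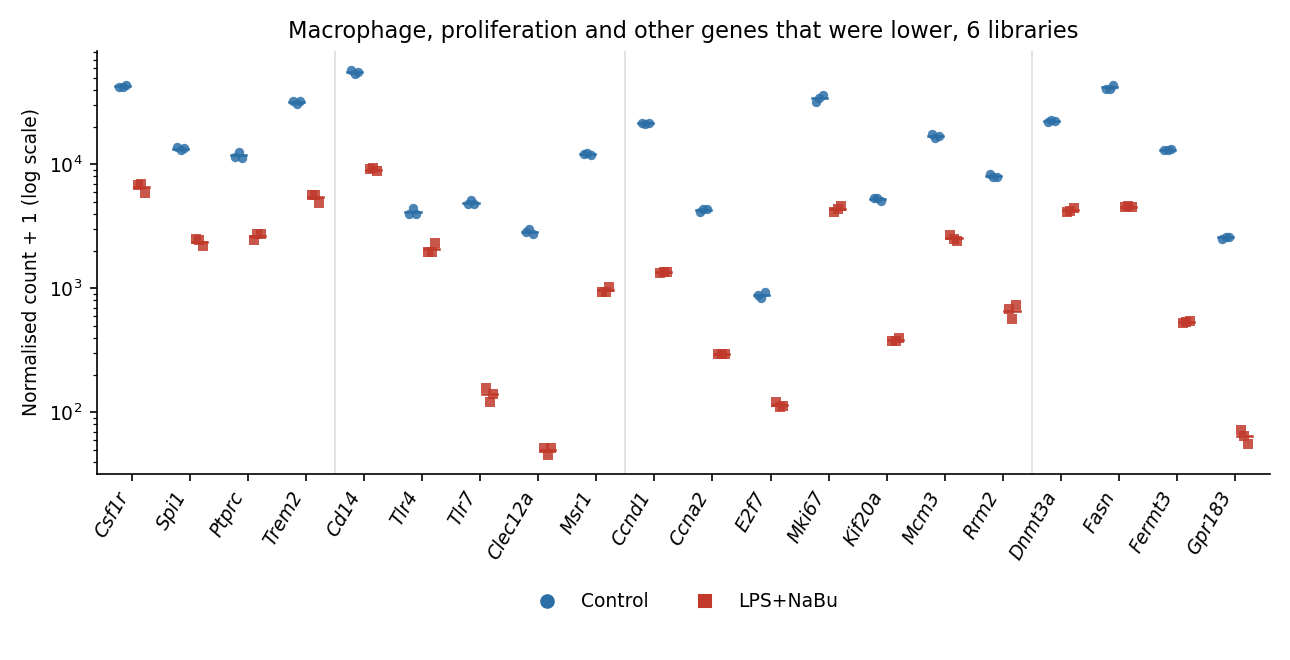
Normalised count plus 1 (y axis, log scale) of 20 macrophage, proliferation and other genes in each of the 3 control (circles) and 3 LPS+NaBu (squares) libraries; short lines mark group means. Every gene shown was chosen from those that fell, and the squares lie below the circles throughout, with the widest gaps at Clec12a, Gpr183 and Tlr7.

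Markers of alternative activation moved in both directions: 12 of 21 tested rose and 6 fell (median 1.27, or 0.60 under quantile normalization). Of the 12, 4 passed the filter through the LPS+NaBu group alone, Pparg among them, and had to be higher there. Among the other 17, 8 rose and 6 fell. Mrc1 (CD206) gave 9.54, 10 and 8.05 in the control libraries and 36.4, 53.5 and 28.1 in the LPS+NaBu libraries (log2 change 1.94 ± 0.33) and Pparg gave 4.77, 9.0 and 4.02 in the control libraries and 15.1, 11.2 and 20 in the LPS+NaBu libraries (log2 change 1.27 ± 0.44). Both rose but stayed at low counts. The call of Pparg was lost without LPS+NaBu replicate 3 (adjusted p = 0.0684) and without control replicate 3 (0.0511), and under quantile normalization its log2 change was 0.02. Arg1 was not called, and Retnla and Chil3 had no read in any of the 6 libraries, which allows up to 3 reads per library. Il4ra rose from 121 ± 20.2 to 1371 ± 112. Igf1 and Cd200r1 fell from 9441 ± 519 to 925 ± 66.7 and from 1825 ± 116 to 265.2 ± 21.6. Ccl22, Socs2 and Irf4, which rose most, also belong to the chemokine, feedback and IRF lists above.

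Complement genes were divided, 5 higher and 5 lower of 13. For 2 of the 5 higher, C1s1 among them, no control library reached the filter, so they had to be higher. Of the other 11 tested genes 3 rose and 5 fell. C3, the central component, gave 201, 199 and 190.1 in the control libraries and 28931, 27599 and 25861 in the LPS+NaBu libraries (log2 change 7.12 ± 0.054). C1s1 went from 1.0 ± 1.01 to 187 ± 14.4. Properdin (Cfp), the C3a receptor C3ar1 and C4b fell, with log2 changes of -1.41, -1.05 and -1.98. In the inflammasome list 8 of 17 rose and 7 fell (47.1% and 41.2%, against 42.7% and 36.6% over all tested genes). The median of that list was 0.22, and its sign changed under quantile normalization. Nlrp3 rose from 2096 ± 55.9 to 10586 ± 270.1 and Casp4 (caspase-11), the sensor of cytosolic LPS, from 622 ± 15.2 to 1962 ± 102. The executioner Gsdmd fell from 5346 ± 107 to 1749 ± 102, Casp1 from 2171 ± 151 to 1520.5 ± 61.6 and the ATP-gated channel P2rx7 from 7907 ± 305 to 3212 ± 102. Il1r1 went from 0.667 ± 1.15 to 50.4 ± 5.68, and it passed the filter through the LPS+NaBu group alone. Il18bp was not called.

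Proliferation genes were lower with few exceptions. All 62 tested mitosis and spindle checkpoint genes fell, 60 of them at least 2-fold (96.8% against 13.6%), with a median log2 change of -2.38. Kif15 and Kif20a, motors of the spindle and midbody, fell from 3502 ± 35.6 to 241 ± 57.6 and from 5263 ± 132 to 381 ± 11.3. Cdc20, the activator of the anaphase-promoting complex, gave 5531, 5055 and 5526 in the control libraries and 466, 425 and 429.9 in the LPS+NaBu libraries (log2 change -3.61 ± 0.061, adjusted p = 2.8e-13). Nuf2, of the kinetochore, fell from 3788 ± 60.7 to 317 ± 34.1. Mki67 (Ki-67), a marker of cycling cells, gave 32024, 34021 and 36345 in the control libraries and 4126, 4346 and 4578 in the LPS+NaBu libraries (log2 change -2.97 ± 0.054). Its values fell to a common low level in all 3 LPS+NaBu libraries.

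DNA replication genes fell in 54 of 57 cases, 39 at least 2-fold, and rose in 3 (median -1.49). Rrm2, a subunit of ribonucleotide reductase, gave 8312, 7853 and 7869.9 in the control libraries and 678, 564 and 736 in the LPS+NaBu libraries (log2 change -3.61 ± 0.081). Mcm10 and Mcm3 of the replication origin and thymidine kinase Tk1 fell, with log2 changes of -3.15, -2.74 and -2.80. The 3 that rose, Orc4, Rnaseh2a and Gins4, had log2 changes of 0.38, 0.23 and 0.19. That of Gins4 was not called without control replicate 2 (adjusted p = 0.052). The other subunits of the MCM2-7 helicase (Mcm2, Mcm4, Mcm5, Mcm6 and Mcm7), named after their values were seen, fell as well, with log2 changes of -2.25, -2.69, -1.96, -2.12 and -1.98.

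Of 33 cyclins, CDKs, their inhibitors and E2F factors 24 fell and 5 rose (median -0.97). Ccnd1 gave 21614, 21280.2 and 21733 in the control libraries and 1321, 1359.6 and 1361 in the LPS+NaBu libraries (log2 change -4.0 ± 0.039, adjusted p = 5.8e-15). Ccna2 and Ccnb1, cyclins of S phase and mitosis, fell from 4258 ± 128 to 295 ± 1.30 and from 7140.2 ± 143 to 1009 ± 23.6, and the repressor E2f7 from 885 ± 49.2 to 114 ± 5.30. Cdkn1a (p21), an inhibitor of cyclin-dependent kinases and a known target of deacetylase inhibitors, gave 10257, 10560.1 and 10726 in the control libraries and 23540, 22631 and 22396 in the LPS+NaBu libraries (log2 change 1.12 ± 0.04). Rb1, Ccng2 and Cdkn2d rose, with log2 changes of 1.26, 1.05 and 0.68, and Cdkn1b (p27) was not called (log2 change -0.19 ± 0.085). DNA repair genes fell in 44 of 60 and rose in 9 (median -0.76). The checkpoint kinase Chek1 fell from 1693 ± 95.5 to 233 ± 25.6 and Bard1 from 1272 ± 83.5 to 175 ± 20.6, whereas Lig4 of end joining and Xpa of excision repair rose, with log2 changes of 1.25 and 0.94.

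The p53 list was balanced, 15 higher and 15 lower of 32 (46.9% each, against 42.7% and 36.6% over all tested genes). The sign of its median (-0.05) changed with the scaling. Of the 15 higher genes, 1 passed the filter through the LPS+NaBu group alone. Trp53 itself fell from 7273 ± 172 to 1636 ± 99.2, and Gadd45a and Btg2 rose, with log2 changes of 3.02 and 1.77. In the BCL2 family Bcl2l11 (BIM), which promotes apoptosis, gave 927, 1035 and 858 in the control libraries and 6845, 6593 and 7182 in the LPS+NaBu libraries (log2 change 2.87 ± 0.067). Bmf and Pmaip1 (NOXA) rose, with log2 changes of 1.48 and 1.25. The effectors Bax and Bak1 and the survival gene Bcl2l1 fell, with log2 changes of -1.18, -1.73 and -0.78. Over the family 9 of 18 rose and 6 fell (50% and 33.3%, against 42.7% and 36.6% over all tested genes). Of the 9, 1 passed the filter through the LPS+NaBu group alone. Among apoptotic caspases, death receptors and IAPs 14 of 30 rose and 13 fell (46.7% and 43.3%, against the same shares). The death receptor Fas rose from 23.2 ± 9.18 to 457 ± 29.5, the TNF receptor Tnfrsf1b from 1548 ± 17.2 to 12499 ± 324 and Casp6 from 462 ± 9.81 to 2334 ± 57.6.

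Histone deacetylase genes did not share a direction. Of 18 tested deacetylases and sirtuins 8 rose and 6 fell (median 0.09). These were 44.4% and 33.3%, close to the 42.7% and 36.6% over all tested genes. Hdac1, a class I enzyme of corepressor complexes, gave 3856, 3621 and 3719 in the control libraries and 8398, 8463 and 8009 in the LPS+NaBu libraries (log2 change 1.15 ± 0.043, adjusted p = 1.4e-10). Hdac3, an enzyme of nuclear receptor corepressor complexes, gave 3505, 3541 and 3535 in the control libraries and 5109.7, 4838 and 4958 in the LPS+NaBu libraries (log2 change 0.49 ± 0.041). Hdac2 fell by 0.31 on the log2 scale. These 3 class I enzymes moved in both directions, each by less than the 2-fold mark except Hdac1. Hdac11 rose from 54.7 ± 15.1 to 369.6 ± 17.6 and Hdac9 fell from 1852 ± 109 to 208 ± 19.2. Sirt2, Sirt4 and Sirt7 rose, with log2 changes of 1.45, 1.18 and 1.09, and Sirt1 fell by 1.15 on the log2 scale. Hdac4 and Hdac5 were not called.

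Corepressor, acetyltransferase and bromodomain genes were lower in 27 of 39 cases and higher in 5 (median -0.47). Mta3 and Chd3 of the NuRD complex fell, with log2 changes of -1.96 and -1.76, and the acetyltransferase Kat2b (PCAF) fell from 1503 ± 64.4 to 391 ± 67.4. Tbl1xr1 fell by 1.54 on the log2 scale. Sin3b, Brd2 and Rcor1 rose, with log2 changes of 1.0, 0.85 and 0.45, and Sin3a was not called. Polycomb and DNA methylation genes were divided (12 higher and 15 lower of 36). Dnmt3a, a de novo DNA methyltransferase drawn in the plot of lower genes, fell from 22276 ± 449 to 4250.3 ± 195. Among replacement and linker histones 7 of 15 rose and 4 fell (median 0.11). Of the 7, 1 passed the filter through the LPS+NaBu group alone. H1f0, the linker histone of resting cells, gave 21592, 21104 and 21039 in the control libraries and 86401, 84629 and 74884 in the LPS+NaBu libraries (log2 change 1.95 ± 0.055). H1fx and Hist3h2a rose, with log2 changes of 2.69 and 3.73, while H2afz and the centromeric Cenpa fell, with log2 changes of -1.38 and -1.87.

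Central carbon metabolism changed gene by gene. In glycolysis and the pentose phosphate pathway 14 of 37 rose and 18 fell (median -0.13). Slc2a1 (GLUT1) rose from 11767 ± 398 to 32749.8 ± 991, and Slc2a3 (GLUT3) and Hk3 fell, with log2 changes of -1.54 and -1.55. Pdk2 rose by 1.87 on the log2 scale and Pdk1 fell by 1.31 on the log2 scale, both kinases that restrain pyruvate dehydrogenase. Ldha and Gpi1 were not called. Among TCA cycle and related enzymes 9 of 29 rose and 14 fell. Pyruvate carboxylase Pcx rose from 908 ± 66.7 to 4349.99 ± 391 and ATP citrate lyase Acly from 18024 ± 273 to 37084 ± 436, and Suclg2 fell from 4551 ± 100.2 to 918 ± 73. Nuclear-encoded subunits of the respiratory chain were called in both directions (23 higher and 34 lower of 74), but none rose 2-fold and 1 fell 2-fold. That subunit was Ndufs8, with a log2 change of -1.49. Transcripts of the mitochondrial genome changed little, with 12 of 15 not called and none changed 2-fold. mt-Co1 gave 303048 ± 17319 and 321939 ± 2143 and was not called.

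Genes of lipid metabolism also moved in both directions. In cholesterol synthesis 17 of 28 fell and 8 rose (median -0.37). Hmgcs1 fell from 9915 ± 272 to 3262 ± 126 and Cyp51 from 7436 ± 121 to 2742 ± 13.9, while Insig2, which retains the SREBP complex, rose from 1109 ± 34 to 2662 ± 66.2. Cholesterol efflux and LXR genes fell in 15 of 21 (median -0.54), with Nr1h3 (LXR-alpha) from 396 ± 56.8 to 105 ± 12.5. In fatty acid metabolism 33 of 55 rose, 19 at least 2-fold, and 17 fell (median 0.38). For 3 of the 33 no control library reached the filter. Fasn, which makes palmitate, gave 40640.2, 40560.3 and 44037 in the control libraries and 4535, 4649 and 4492 in the LPS+NaBu libraries (log2 change -3.19 ± 0.044). The elongase Elovl6 and lipoprotein lipase Lpl fell, with log2 changes of -2.50 and -1.94. Fabp4, a lipid chaperone, rose from 434 ± 33.1 to 5354 ± 211, Dgat2, the last step of triglyceride synthesis, from 15.9 ± 3.29 to 263 ± 15.2 and Ppara from 2.66 ± 1.14 to 46.8 ± 6.89. Cidea had no control read and was at least 10.9-fold higher. Cpt1a, Acadvl and Slc25a20 of fatty acid oxidation, chosen after their values were seen, rose, with log2 changes of 1.53, 1.38 and 1.56.

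Genes that sense, carry and activate short-chain fatty acids moved in both directions. Ffar3 had no read in any of the 6 libraries, which allows up to 3 reads per library. Ffar2 gave 4.77, 6.0 and 0 in the control libraries and 0, 0 and 0 in the LPS+NaBu libraries and was not tested. Hcar2 (GPR109A), the receptor for butyrate and niacin, gave 419, 447 and 446 in the control libraries and 1483, 1524 and 1436 in the LPS+NaBu libraries (log2 change 1.76 ± 0.067, adjusted p = 1.5e-10). Slc16a1 (MCT1), a butyrate transporter, gave 8521, 8508 and 8226 in the control libraries and 2343, 2469 and 2584 in the LPS+NaBu libraries (log2 change -1.77 ± 0.047). The receptor thus rose and the transporter fell, both without overlap. Its chaperone Bsg rose by 0.62 on the log2 scale. Acss2, which makes acetyl-CoA from acetate, rose from 1538 ± 73.7 to 5736 ± 96.8. In the list of 8 tested, 4 rose and 3 fell.

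Redox genes were divided, 15 higher and 20 lower of 37 (median -0.16). Prdx1 gave 29248, 28797 and 27648 in the control libraries and 102966, 106615 and 103205 in the LPS+NaBu libraries (log2 change 1.87 ± 0.044). Srxn1, Txnip and Gsta4 rose, with log2 changes of 2.12, 1.86 and 4.73. Keap1, the repressor of NRF2, fell from 3769 ± 139 to 1339.7 ± 73.4, and the cystine transporter Slc7a11 fell from 1724 ± 169 to 500.5 ± 58.4. Iron and haem genes rose in 15 of 22 and fell in 6 (median 0.39). For 2 of the 15 no control library reached the filter. Lcn2, which binds bacterial siderophores, rose from 103 ± 7.85 to 1893 ± 105. Hamp (hepcidin) went from 0.667 ± 1.15 to 85.3 ± 23.8, the transferrin receptor Tfrc fell from 13481 ± 795 to 4144 ± 553 and Blvra from 12479 ± 429.6 to 4034 ± 186. Metallothioneins, which bind zinc, were higher, Mt1 from 12594 ± 643 to 52788 ± 1998 and Mt2 from 5382 ± 344 to 19532 ± 491. Their activator Mtf1 rose by 1.43 on the log2 scale and the zinc importer Slc39a8 (ZIP8) from 17.1 ± 4.34 to 80.8 ± 33.6. In this list 9 of 18 rose and 4 fell (median 0.43).

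Stress programmes moved in both directions. Of 35 ATF4 targets and aminoacyl-tRNA synthetases 19 fell and 11 rose (median -0.23). Of the 11, 1 passed the filter through the LPS+NaBu group alone. Ddit3 (CHOP) rose from 1238 ± 42.7 to 4826 ± 231 and Ddit4 from 338 ± 75 to 1986 ± 65.8. Shmt2 fell from 19329 ± 208 to 6014 ± 355. Unfolded protein response and chaperone genes rose in 9 and fell in 16 of 32, with 1 at least 2-fold higher and 2 at least 2-fold lower. Autophagy genes were mostly higher. Here 34 of 42 rose (81% against the 42.7% background) and 6 fell, and the median was 0.74. Sqstm1 gave 19928, 18075 and 19444 in the control libraries and 223820, 217846 and 197123 in the LPS+NaBu libraries (log2 change 3.47 ± 0.059, adjusted p = 2.9e-13). Wipi1, which marks forming autophagosomes, rose from 269 ± 17.8 to 2372 ± 67.8, and Map1lc3a and Calcoco1 rose, with log2 changes of 2.67 and 2.20. Atg9b fell from 2725 ± 97.5 to 364 ± 26.3.

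Lysosomal genes were balanced, 25 higher and 23 lower of 56 (44.6% and 41.1%, against 42.7% and 36.6% over all tested genes). The sign of the median (0.04) changed with the scaling. Neu1 rose from 4017 ± 92.9 to 16278 ± 732, Ctsl from 19974 ± 398 to 57751 ± 2504 and the low Ctsh from 1.73 ± 1.61 to 21.7 ± 6.52. Ctsh passed the filter through the LPS+NaBu group alone and had to be higher there. Ctsk (cathepsin K), the collagenase of osteoclasts, gave 85147, 82109.6 and 79632 in the control libraries and 18024, 17816 and 17325 in the LPS+NaBu libraries (log2 change -2.21 ± 0.043), and Gusb and Lipa fell, with log2 changes of -1.81 and -1.37. Osteoclast genes were all called, where 79.3% of all tested genes were, with 10 higher and 9 lower of 19 (median 0.39). These were 52.6% and 47.4%, against 42.7% and 36.6% over all tested genes. Of the 10, 1 passed the filter through the LPS+NaBu group alone. Mmp9 rose from 1255 ± 60 to 10660.2 ± 182 and the fusion gene Ocstamp from 38 ± 12.4 to 448 ± 46, while Car2 and Siglec15 fell, with log2 changes of -2.28 and -1.76. Cytosolic ribosomal protein genes were called lower in 50 and higher in 3 of 79 cases, with a median of -0.17, so the shifts were small. The 2 that fell 2-fold, Rpl21 and Rpl29, had low counts (311 ± 38.7 and 128 ± 7.75 for Rpl21), and reads of ribosomal protein genes can be shared with their many pseudogenes.

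**Figure D4:**
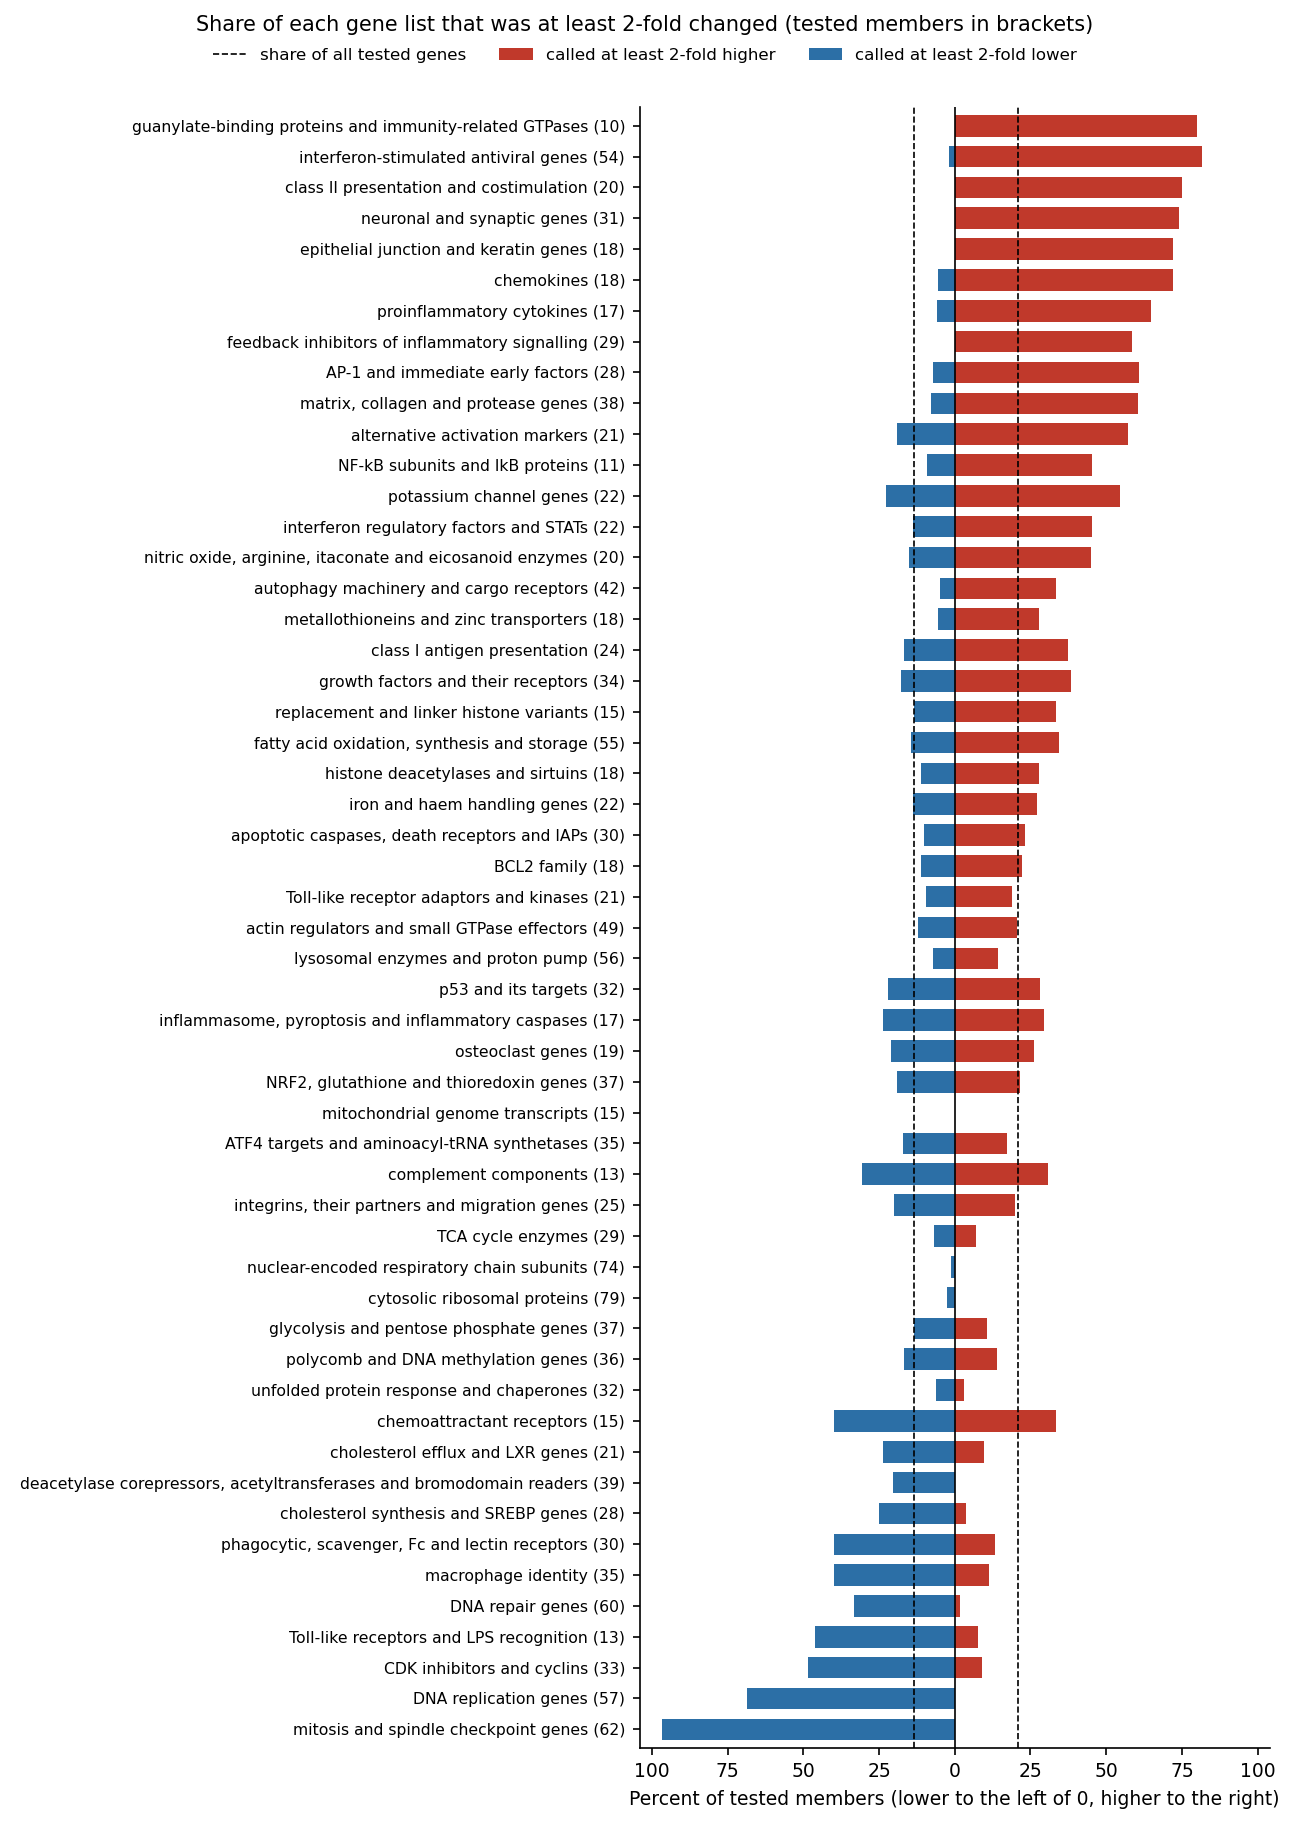
Percent of the tested members of each gene list with at least 10 of them, called at least 2-fold higher (bars to the right) or lower (bars to the left), with the number tested in brackets; dashed lines mark the shares over all 14382 tested genes, 20.9% and 13.6%. The guanylate-binding proteins and interferon-stimulated genes are at the top and the mitosis genes at the bottom, where the bar reaches 96.8%.

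Gene lists drawn up for other tissues were examined in these macrophage-like cells. Membership of such a list does not mean that a gene is absent from blood cells. Of 18 tested epithelial junction and keratin genes 13 rose, all at least 2-fold, and 2 fell. Only 18 of the 45 listed genes passed the filter, and 6 of them passed through the LPS+NaBu group alone and had to be higher there. Among the other 12, 7 rose and 2 fell. F11r gave 3.18, 0 and 0 in the control libraries and 518, 555 and 565 in the LPS+NaBu libraries (log2 change 8.41 ± 0.47). Pkp3 (plakophilin-3) of desmosomes gave 0, 6.0 and 0 in the control libraries and 435, 405 and 348 in the LPS+NaBu libraries (log2 change 7.69 ± 0.61). Cgn (cingulin) of tight junctions rose from 9.88 ± 4.26 to 604 ± 6.88. F11r and Pkp3 gave at most 6.0 in any control library. The genes that define an epithelium stayed near 0 in both groups, since Cdh1 gave 2.75, 2.23 and 1.81 and Epcam 2.06, 0 and 5.44 in the LPS+NaBu libraries and no read in the control libraries. Elf3, an epithelial transcription factor, had no control read and was at least 14.4-fold higher.

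Neuronal and synaptic genes rose in 26 of 31 tested and none fell, with 23 at least 2-fold higher (74.2% against 20.9%). Celf5, an RNA-binding protein of brain, gave 7.95, 2.0 and 2.01 in the control libraries and 584, 544 and 474 in the LPS+NaBu libraries (log2 change 6.95 ± 0.37). Tubb3, the neuronal beta-tubulin, gave 6.36, 8.0 and 8.05 in the control libraries and 289, 248 and 270.3 in the LPS+NaBu libraries (log2 change 5.0 ± 0.22). Celf4 and Nrxn2 went from 5.32 ± 4.60 to 85.2 ± 19.5 and from 0.530 ± 0.918 to 34.1 ± 8.27. Only 31 of the 60 listed genes passed the filter, and 7 of them passed through the LPS+NaBu group alone and had to be higher there. Among the other 24, 19 rose. Potassium channel genes were mixed, with 13 of 22 higher, 5 of which passed the filter through the LPS+NaBu group alone, and 6 lower. Kcnh3 gave 0, 6.0 and 0 in the control libraries and 751, 805 and 786 in the LPS+NaBu libraries (log2 change 8.67 ± 0.59), and the auxiliary subunits Kcnip2 and Kcnab3 rose, with log2 changes of 5.32 and 4.68. Kcnn4 (KCa3.1), the calcium-activated channel of leukocytes, fell from 9218 ± 527 to 1496 ± 98.9, and Kcnk13 from 2069 ± 76.8 to 435 ± 6.0.

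Of the 32 germline genes 7 were tested, of which 4 rose and 1 fell. Of the 4, 1 passed the filter through the LPS+NaBu group alone and had to be higher there. Among the other 6, 3 rose and 1 fell. Brdt, the testis bromodomain protein, rose from 42.4 ± 5.73 to 323 ± 31.5 and Ddx25 from 6.74 ± 3.13 to 84.3 ± 3.85. Matrix, collagen and protease genes rose in 26 of 38 and fell in 7, and 6 of those that rose passed the filter through the LPS+NaBu group alone. Plat gave 3.18, 11 and 8.05 in the control libraries and 5317, 4989 and 5147 in the LPS+NaBu libraries (log2 change 9.39 ± 0.29). Col1a1 and Col16a1 went from 2.54 ± 1.30 to 147 ± 5.24 and from 0.530 ± 0.918 to 121 ± 11.7, and the laminin Lama5 from 28.1 ± 2.03 to 1481 ± 52.4. Spp1 (osteopontin), chosen after its values were seen, rose from 203140 ± 6587 to 533189 ± 6942. Growth factors and receptors rose in 21 of 34, of which 5 passed the filter through the LPS+NaBu group alone, and fell in 10. Pgf rose from 9.33 ± 2.31 to 359.96 ± 20.9, and Igf1 and Igfbp4 fell, with log2 changes of -3.35 and -3.40.

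Integrin genes and their partners were divided (10 higher and 11 lower of 25). These were 40% and 44%, against 42.7% and 36.6% over all tested genes. Of the 10, 1 passed the filter through the LPS+NaBu group alone. Itga6 and Itgav rose from 16.6 ± 3.40 to 469.6 ± 39.7 and from 2175 ± 125 to 9409 ± 897, while Itga4 (VLA-4) fell from 11361 ± 747 to 1854 ± 272 and Tln1, which with kindlin-3 activates integrins, from 97160.1 ± 5453 to 33115 ± 1337. Actin regulators were also divided (22 and 23 of 49). For 3 of the 22 no control library reached the filter. Cnn2 and Rhob rose, with log2 changes of 2.68 and 2.53, and Pfn1 (profilin) and Tpm4 fell, with log2 changes of -1.45 and -1.32.

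Markers of other cell types were examined beside these changes. Of the T cell markers 2 were tested, of which Lck fell (456 ± 28.5 to 211 ± 5.47) and Cd4 was not called. Of 4 tested B cell markers 3 rose, 2 of which passed the filter through the LPS+NaBu group alone, and 1 was not called. The summed level of the B cell list ran from 2653 to 2716 in the control libraries and 2550 to 2924 in the LPS+NaBu libraries. Cd79a, Cd79b and Cd22 reached 23.4, 17.8 and 21.8 (Cd79a), 23.4, 17.8 and 24.5 (Cd79b) and 18.6, 27.9 and 24.5 (Cd22) in the 3 LPS+NaBu libraries. Ms4a1 (CD20) had no read in any library. Prf1 (perforin) went from 0.671 ± 1.16 to 254 ± 23, whereas Ncr1, Klrb1c and Gzmb were at 0 in all 6 libraries. Prf1 passed the filter through the LPS+NaBu group alone, so it had to be higher. All 5 tested fibroblast markers rose (Col1a1, Pdgfra, Pdgfrb, Thy1 and Acta2), but none of the 5 reached the filter in any control library, so each had to be higher, while of the defining genes Lum had no read in any of the 6 libraries and Dcn had reads in control replicate 2 alone. Of endothelial markers Pecam1 rose and Vwf fell, and of hepatocyte markers Hnf4a rose, Apoa2 fell and Alb was at 0 throughout. Pecam1 and Hnf4a passed the filter through the LPS+NaBu group alone, so each had to be higher. No mast cell marker was tested. Hba-a1, Itga2b, Pf4 and Gp1ba rose among 6 tested erythroid and megakaryocyte markers, and 1 of these passed the filter through the LPS+NaBu group alone. Gp1ba was not called without LPS+NaBu replicate 1, LPS+NaBu replicate 2 or control replicate 1 (adjusted p from 0.0587 to 0.154). The summed level of the macrophage markers ran from 419115 to 434221 in the control libraries and 211017 to 228857 in the LPS+NaBu libraries. For fibroblast markers the sums were 11.9 to 18 in the control libraries and 304 to 333 in the LPS+NaBu libraries. What part cells of other types had in these changes was not tested.

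**Figure D5:**
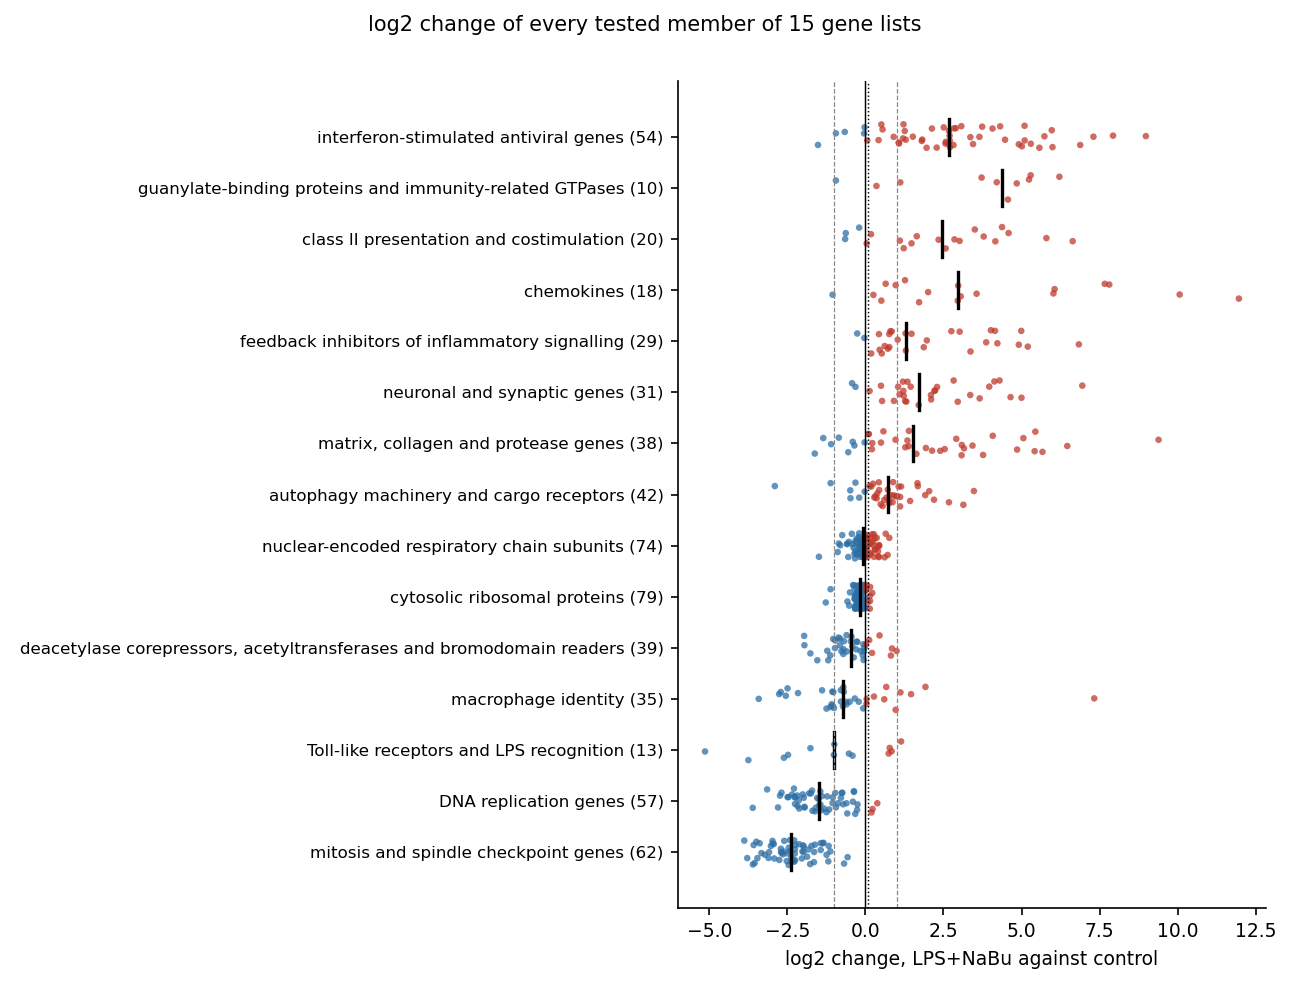
Log2 change (LPS+NaBu minus Control, x axis) of each tested member of 15 gene lists; points are genes, black bars list medians, and the dotted line is the median over all tested genes, 0.08. Mitosis and replication genes lie to the left of 0 with few exceptions, interferon-stimulated and neuronal genes to the right, and respiratory chain and ribosomal protein genes stay close to 0.

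The calls were also counted by class of RNA. Among 12392 protein-coding genes 22.2% were at least 2-fold higher and 13.3% at least 2-fold lower, and among 489 lncRNA genes 21.1% and 17.4%. Of 1087 pseudogenes 7.54% were at least 2-fold higher and 14.6% lower, with a median log2 change of -0.18. Of 61 small nucleolar RNA genes 24 were called lower and 2 higher (median -0.52), although these libraries were not made for short RNAs. The library kit marked strand, but no source used here gives the strand setting of the counting, so reads of overlapping and antisense genes may not be separated.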

How the data were processed

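Total RNA of RAW264.7 cells (TRIzol, NEBNext Ultra II directional kit) was sequenced, and the 3 LPS+NaBu and 3 control libraries were analysed, grouped by their treatment labels. The 3 LPS-only libraries were left out except in 1 alternative fit. The deposited signal is 1 value per gene and library, described as FPKM by the authors. Tests of the values showed read counts divided by a size factor of each library: all values (100%) were multiples of the step that 1 read is worth (within 1% of 1 in control replicates 2 and 3), and the steps equalled DESeq2 size factors over the 9 libraries to within 0.00036%. The methods of the study name HISAT2 and featureCounts, whereas the processing notes of the submitters give STAR 2.7.7a, DESeq2 and build mm39. No source used here gives the strand setting. The libraries held 39402123 to 64380392 recovered reads. Floors of 3 reads per library and intervals of 95% cover counting error only. Of 43629 identifiers 38984 matched GENCODE M39 (89.4%), which gave the class of RNA.

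Genes that reached 10 normalised counts in 3 or more of the 6 libraries were tested on log2(normalised count + 1) with limma 3.58.1 (R 4.3.3, intensity trend, Benjamini-Hochberg adjustment). On simulated counts of this comparison (14382 genes, 200 changed) limma recovered 82% of 2-fold and 95% of 4-fold changes with 19 false calls. Far fewer genes were changed there than the 79.3% called in the data, so the simulation does not give the error rate of these calls. Alternatives were edgeR 4.0.16 and DESeq2 1.42.0 on the recovered reads, other pseudocounts, filters, scalings and fits, a replicate block and leaving out each library. Named genes were the 15 largest rises and falls among called, non-overlapping genes with a mean of at least 100 in the higher group. To these came the 10 largest with means of at least 1000 in both groups and genes the study discusses. Per list up to 4 largest rises and falls and 2 abundant genes not called could be named. Any member of a list of 20 or fewer could also be named. Members of longer lists named outside these rules were chosen after their values were seen. The comparison, the lists and their members were chosen with earlier results of these data known. RefSeq promoter windows (GRCm38.p6) existed for 10271 of 14382 tested genes (71.4%), so no comparison of promoters over all calls was made. Some genes of the lists are not reported here by name.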

Additional observations from a re-analysis of the deposited data

How the results depend on the processing

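The counts of genes called higher (6136) and lower (5262), and of those changed at least 2-fold, kept within 1.5 times under every alternative run. The range was 5188 (filter of at least 50) to 7083 (no filter) higher and 4947 (filter of at least 50) to 6081 (quantile normalization) lower. Leaving out each library gave 5911 to 6063 higher and 4996 to 5213 lower. edgeR called 5800 higher and 5597 lower, DESeq2 5769 and 5429, and scaling to the same total 6415 and 4956. Quantile normalization gave 5576 higher and 6081 lower, so 47.8% of its calls were higher against 53.8%. The median log2 change over all tested genes was 0.08 as deposited, 0.13 with equal totals and 0.02 with TMM scaling. Same-numbered libraries did not pair (correlations of their deviations 0.00221, -0.0332 and -0.0343), and the replicate block gave 6045 higher and 5195 lower.

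Of the named genes, the log2 change of Ifi27, not called with all libraries, became 0.21 without control replicate 3, the highest of its values with 1 library left out (the lowest was -0.21). Under quantile normalization the log2 change of Il18bp became -0.37, the log2 change of Bcl2a1b -0.36 and the log2 change of mt-Co1 -0.11. The cause was not tested. Over all named genes and alternatives, 70 values lost their call and 160 gained one, and 34 counts of 2-fold members of a list moved by more than 1.5 times. The other 11432 kept their side of the threshold or stayed within 1.5 times. Under the same normalization the log2 change of Tlr1 (0.28), the log2 change of Tlr3 (0.44), the log2 change of Cd79a (0.80) and the log2 change of Cd79b (0.91) no longer passed the test. Medians of the inflammasome, lysosome, integrin, p53, apoptotic caspase, polycomb, TCA cycle, mitochondrial genome, short-chain fatty acid and T cell lists changed sign with the scaling. Genes with few control reads have folds set largely by the added 1, and 3 libraries a group limit any permutation p to 0.1.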
